A study of Rattus norvegicus with 15 samples.

Results

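Circular RNAs (circRNAs) that were listed at 0 in every sham library and above 0 in at least 8 of the 12 libraries taken after modelling of deep venous thrombosis were examined in whole blood of the rat. The table holds 43472 circRNAs, and 235 of them met this condition. The rule sets aside 7 circRNAs, of which 2 met the condition, and the remaining 233 are called members here. Members were thus chosen by their listing, above 0 or not, in each of the 15 libraries. Because they were selected on zeros in sham, the contrast with sham is a description with no test, and tests were made only between the 4 times after modelling.

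A circRNA is a closed loop made when a splice donor joins an acceptor that lies upstream of it, and the junction formed this way is called a back-splice. Lacking free ends, the loops resist the exonucleases that degrade linear RNA, and many persist in blood, where platelets and red cells carry RNA without a nucleus. In deep venous thrombosis a clot forms inside a deep vein, with platelets, red cells and leukocytes among its parts.

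Blood came from male rats of the outbred Sprague-Dawley strain, aged 6 to 8 weeks and weighing 250 to 300 g. There were 5 groups of 3 libraries: a sham group labelled 0 h, and groups sampled after modelling at 1 h, 6 h, 12 h and, labelled 72 h, 3 d. The labels give no further detail of the model or of the sham procedure, and do not say whether the 3 libraries of a group are separate animals, so p-values measure only the spread between these libraries, which may be technical. The titles of the sham, 1 h and 3 d libraries carry a prefix ending in A&B and those of the 6 h and 12 h libraries a prefix ending in C; what the prefixes stand for is not given, and they are called sets A&B and C. Levels are in SRPBM: reads across the back-splice, scaled to 1e9 mapped reads in the library. In whole blood, fewer cells of a type and less RNA per cell cannot be told apart. The circRNAs carry running numbers with no host gene, coordinate or sequence beside them in the table, so the tissue could not be checked against marker genes and members are given by number.

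The libraries held 66.0 to 92.4 M mapped reads (M for 1e6), recovered from the steps between values, and a listed value stood for at least 2 back-spliced reads. Between 9354 and 15366 circRNAs were listed in 13 libraries, against 2958 in sham replicate 2 and 2551 in 1 h replicate 1. Both libraries stand apart from the rest. Their mapped reads did not: they held 66.0 M and 73.3 M, and 3 d replicate 3, with 69.3 M, listed 10638 circRNAs. Back-spliced reads numbered 118629 in 1 h replicate 1, against 657077 to 2517659 in the other libraries after modelling.

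Members were low and were carried by few reads. Their mean level over the 12 libraries after modelling ran from 22.9 to 420 SRPBM, with a median of 56.7 and quartiles of 45.3 and 73.3. The mean was above 100 SRPBM in 25 members and above 200 in 2. Where a member was listed, its median was 2 to 21.5 reads, with 6 for the typical member. Of 2029 listed values, 20.6% stood for 2 or 3 reads and 24.8% for 10 or more. No member had over 50% of its summed level in a single library (0 members), and the highest library held 22.4% at the median. The member with the highest mean, CBT15_circR_3235, lay just under that limit at 49.7%.

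Most members lay close to the limit of the rule. Of the 233, 123 (52.8%) were listed in exactly 8 of the 12 libraries, 65 in 9, 36 in 10, 8 in 11 and 1 in all 12. The 123 just inside the limit had a median level of 50.8 SRPBM, and the 220 circRNAs just outside it, at 0 in sham and listed in 7 libraries, one of 38.8. The highest just inside was CBT15_circR_3235 (420 SRPBM), followed by CBT15_circR_1446 (194 SRPBM). The highest just outside were CBT15_circR_39778 (627 SRPBM), above every member, and CBT15_circR_1968 (148 SRPBM).

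**Figure D1:**
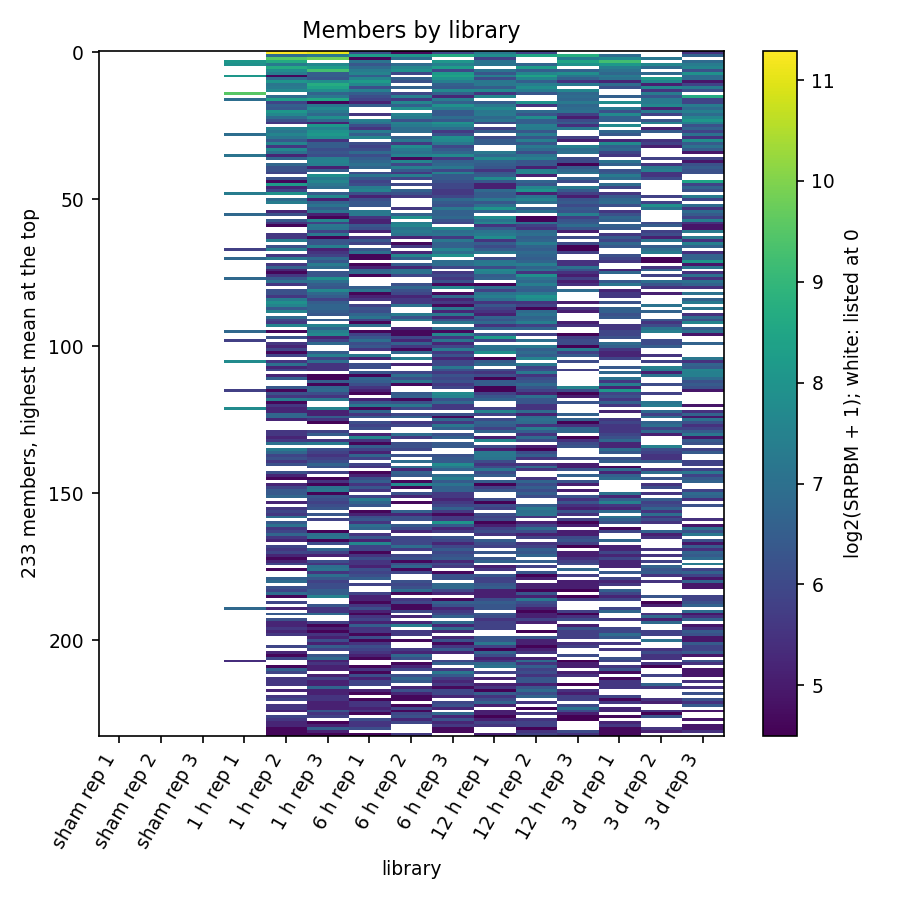
Heat map of the 233 members (rows, highest mean level at the top) in the 15 libraries (columns), coloured by log2(SRPBM + 1), with white for values listed at 0. The sham columns are white by the rule. The column of 1 h replicate 1 is white for 214 members.

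Zeros in sham were next set against those of other circRNAs that were as common after modelling. In all, 6290 circRNAs were above 0 in at least 8 of the 12 libraries. Of these, 1667 (26.5%) were listed in all 3 sham libraries, 3117 (49.6%) in 2, 1271 (20.2%) in 1 and 235 (3.74%) in none. The median level after modelling rose along with the number of sham libraries listed, at 57.1 SRPBM for none, 68.5 for 1, 128 for 2 and 408 for all 3. The median of reads per listed value was 6, 7, 11.5 and 33. Members were thus the lowest of these 4 classes, although the quartiles of the class with none (45.4 and 73.7 SRPBM) overlapped those of the class with 1 (53.0 and 95.3).

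At this level a sham library holds few reads. A circRNA at the median level of the members would give 5.02 reads in sham replicate 1, 3.74 in replicate 2 and 4.89 in replicate 3. Among the 1282 circRNAs as common after modelling whose mean lay between the members' quartiles, 44.9% were listed at 0 in sham replicate 1, 90.2% in replicate 2 and 21.3% in replicate 3. Members made up 117 of these 1282 and were at 0 in every sham library by the rule, which raises the sham shares. All 1282 were chosen as common after modelling, which limits their zeros in those libraries but not in sham. For both reasons the sham shares cannot be compared with those after modelling. In the libraries after modelling other than 1 h replicate 1, from 9.83% (6 h replicate 3) to 39.2% (3 d replicate 2) of the same circRNAs were at 0, and in 1 h replicate 1 it was 92.0%. The shares at 0 differed between libraries after modelling that would give like numbers of reads at that level. The share was 92.0% at 4.16 reads in 1 h replicate 1 and 25.5% at 3.93 in 3 d replicate 3. Sham replicate 2, where zeros were not limited by the choice, had 90.2% at 3.74. What part few reads had in these zeros was not tested. A zero in sham is given as listed at 0 and not as absence.

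The number of members was set mainly by sham replicates 1 and 3. Of the 258 common circRNAs at 0 in both, 235 (91.1%) were also at 0 in replicate 2. With the 7 circRNAs set aside, the rule gave 256 without replicate 2, 562 without replicate 1 and 1148 without replicate 3. In the class listed in a single sham library, that library was replicate 3 for 918 circRNAs, replicate 1 for 330 and replicate 2 for 23.

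The same rule was then applied to other sets of 3 libraries, to ask how many circRNAs it gives when the zeros are required elsewhere. The sham set holds sham replicate 2, and every other set with exactly 1 of sham replicate 2 and 1 h replicate 1 was taken (155 sets). These gave from 49 to 536 circRNAs, with a median of 201 and quartiles of 129 and 285, against 235 for sham. The sham count was exceeded by 58 of the 155 sets and was above the other 97. Among the 77 other sets with sham replicate 2 the range was 49 to 517 (median 194, 28 sets above sham). Among the 78 with 1 h replicate 1 it was 50 to 536 (median 207.5, 30 above sham). Sets also differ in how many circRNAs their libraries list, summed to 24973 for the 3 sham libraries. The sets with the nearest sums on either side both gave more circRNAs than sham. With 6 h replicate 1 in place of sham replicate 3 the sum was 24934 and the count 271. With 12 h replicate 1 in that place the sum was 25048 and the count 272. The sets overlap in their libraries, so these counts are a description and not a test.

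The position of sham in that range was alike at other limits. Requiring 7 of the other 12 libraries, sham gave 455 circRNAs and 54 of the 155 sets gave more. Requiring 9, it gave 111 and 57 sets gave more. Requiring 10, it gave 45 and 58 sets gave more. The highest count, 536, came from sham replicate 1, 1 h replicate 1 and 3 d replicate 2 together, and the lowest, 49, from sham replicate 2, 1 h replicate 3 and 12 h replicate 2. The first of these sets joins 3 libraries with few circRNAs listed (9583, 2551 and 9354), and the second joins a sparse library with 2 rich ones (2958, 15366 and 14523).

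**Figure D2:**
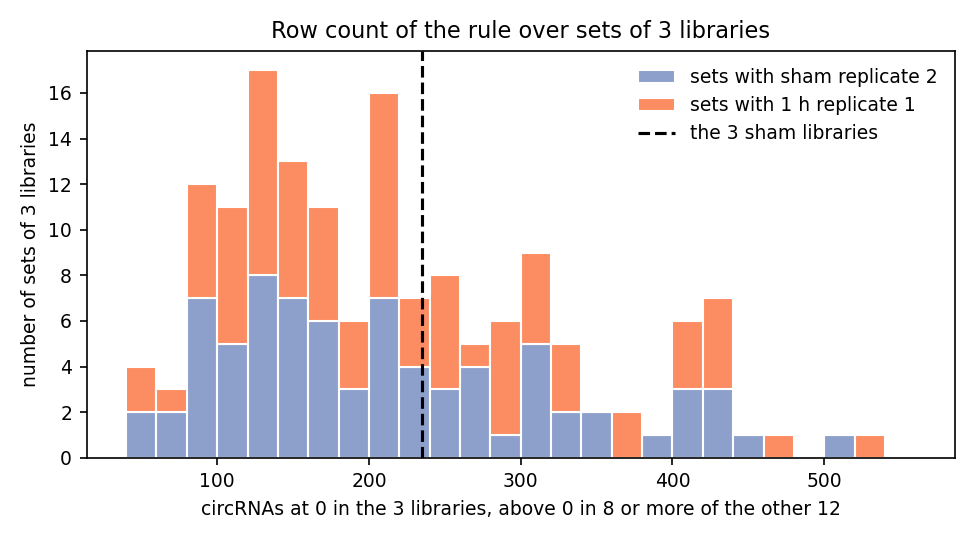
Histogram of the number of circRNAs that meet the rule (x axis) over the 155 other sets of 3 libraries that hold exactly 1 of sham replicate 2 and 1 h replicate 1 (y axis, number of sets, stacked by which of the 2 they hold). The dashed line is the sham set at 235, inside the range of 49 to 536.

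Applied to the labelled groups, the rule gave 235 circRNAs for sham, 151 for 1 h, 51 for 6 h, 26 for 12 h and 143 for 3 d. Sham and 1 h each hold 1 of the sparse libraries. The other groups hold neither, and the 286 sets with neither gave 5 to 169 (median 48.5), all below the sham count. The 13 sets with both sparse libraries gave 409 to 1404, all above it.

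The rule fixes that a member is listed in at least 8 of the 12 libraries after modelling, but treats these libraries alike. At 1 h, 19, 181 and 202 of the 233 members were listed in replicates 1, 2 and 3 (8.15%, 77.7% and 86.7%). At 6 h it was 85.4%, 74.2% and 89.3%, at 12 h 84.5%, 86.3% and 70.8%, and at 3 d 72.1%, 59.7% and 76.0%. Apart from 1 h replicate 1, the lowest was 3 d replicate 2 and the highest 6 h replicate 3. The 1271 common circRNAs listed in 1 sham library followed the same libraries, with 9.44% in 1 h replicate 1, 70.7% in 3 d replicate 2 and 93.5% in 6 h replicate 3. In each of the 12 libraries the share of members was the lower of the pair.

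**Figure D3:**
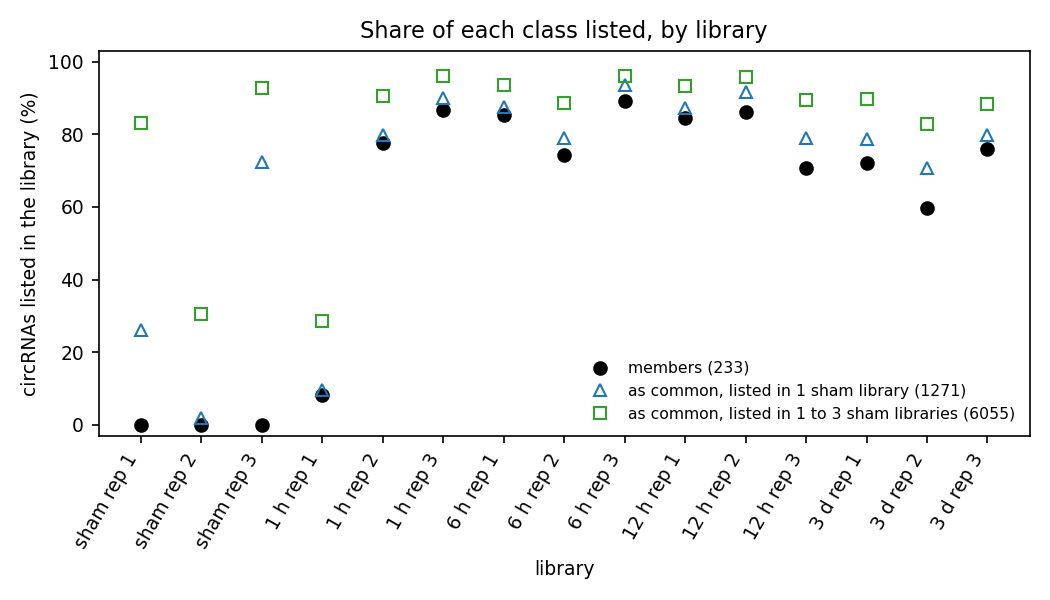
Percentage of circRNAs listed (y axis) in each library (x axis) for the members (filled circles), the 1271 circRNAs as common after modelling and listed in 1 sham library (triangles) and the 6055 listed in 1 to 3 sham libraries (squares). Members are at 0 in sham by the rule, fall to 8.15% in 1 h replicate 1 and lie between 59.7% and 89.3% in the other 11 libraries.

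By group, the percentage of members listed averaged 57.5 ± 43.0 for 1 h and 83.0 ± 7.80 for 6 h, and then 80.5 ± 8.47 for 12 h and 69.2 ± 8.52 for 3 d (SD over 3 libraries, n = 3 for each time). Without 1 h replicate 1 the 1 h value was 82.2 ± 6.37 (n = 2). The 3 d mean was 11.7 percentage points above that of 1 h (two-sided exact permutation p = 1). Without 1 h replicate 1 it was instead 12.9 points below (exact p = 0.2). The 12 h mean was 2.43 points below that of 6 h (exact p = 0.6). Set C (6 h and 12 h) was 18.4 points above set A&B (1 h and 3 d), at exact p = 0.106 and 0.636 after adjustment over the 6 tests of this family. Without 1 h replicate 1 the difference was 7.34 points (exact p = 0.212). These tests use the same listing values as the rule. None of the 3 differences passed, 3 libraries against 3 cannot give a p under 0.1, and in the last comparison the time cannot be told apart from the library set.

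The summed level of the members averaged 14859 ± 10246 SRPBM for 1 h and 16255 ± 2870 for 6 h, and then 16187 ± 3793 for 12 h and 13777 ± 2176 for 3 d (SD over 3 libraries, n = 3 for each time). At 1 h the libraries lay at 3260, 18639 and 22677 SRPBM, the last being the highest of the 12. Without 1 h replicate 1 the 1 h sum was 20658 ± 2855 (n = 2). The ratio of 3 d to 1 h was 0.927 (exact permutation p = 0.9), that of 12 h to 6 h was 0.996 (exact p = 1) and that of set C to set A&B was 1.13 (exact p = 0.571), with an adjusted p of 1 for each. Members were a small part of the circRNA signal, from 0.0437% of back-spliced reads (95% Wilson interval 0.0412 to 0.0464) in 3 d replicate 3 to 0.239% (0.228 to 0.251) in 1 h replicate 2. These intervals cover counting error only, since copies made by PCR are not independent molecules.

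Onset is the first time at which a member was listed. By listing in at least 1 library it was at 1 h for most, and the rule leaves little room for a later start. A member can be at 0 in all 3 libraries of at most 1 time, since it misses at most 4 libraries. Of the 233, 226 (97.0%) were listed in at least 1 library at 1 h and the other 7 (3.00%) first at 6 h. Listed in at least 2 libraries, 161 (69.1%) began at 1 h, 70 (30.0%) at 6 h and 2 at 12 h. Listed in all 3 libraries, 15 began at 1 h, 127 more at 6 h, a further 58 at 12 h and the last 22 at 3 d, and 11 never were. In 1 h replicate 1, 214 members (91.8%) were at 0, while 157 (67.4%) were listed in both other 1 h libraries. Each time has other libraries, so onset compares groups and does not follow a rat.

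The circRNAs listed in a single sham library were set beside them. At least 1 library of 1 h listed 97.2% of them and at least 2 listed 74.8%, against 97.0% and 69.1% of members. Listing in at least 1 library at 1 h was thus not particular to members. At 6 h, 12 h and 3 d the members were listed in at least 2 libraries in 91.4%, 90.1% and 78.5% of cases, against 95.5%, 94.0% and 85.1% in that class. That class was listed in more libraries, with a median of 9 against 8. Among circRNAs listed in 8 to 10 libraries, at least 2 libraries listed 67.9% of 224 members for 1 h, 91.1% for 6 h, 89.7% for 12 h and 77.7% for 3 d, against 69.5%, 94.6%, 92.8% and 82.0% of 1050 in that class. All 3 libraries of 1 h listed 6.25% of these members and 4.38% of that class. The members' median level, taken as each one's mean at a time, was 41.3 SRPBM for 1 h, 60.3 for 6 h, 62.3 for 12 h and 53.6 for 3 d, against 50.6, 80.7, 75.4 and 67.7 in that class. The highest mean fell at 1 h in 41 members, at 6 h in 77, at 12 h in 66 and at 3 d in 49. Without 1 h replicate 1 the order was different: the median level for 1 h was 57.8 SRPBM, and the highest mean fell at 1 h in 76 members, at 6 h in 64, at 12 h in 55 and at 3 d in 38. This sets a mean of 2 libraries at 1 h against means of 3 at the other times. A mean of fewer libraries varies more and can be the highest more often, and the count was not made in the other class. All 4 times had at least 1 listed library in 222 members, and at least 2 in 82.

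**Figure D4:**
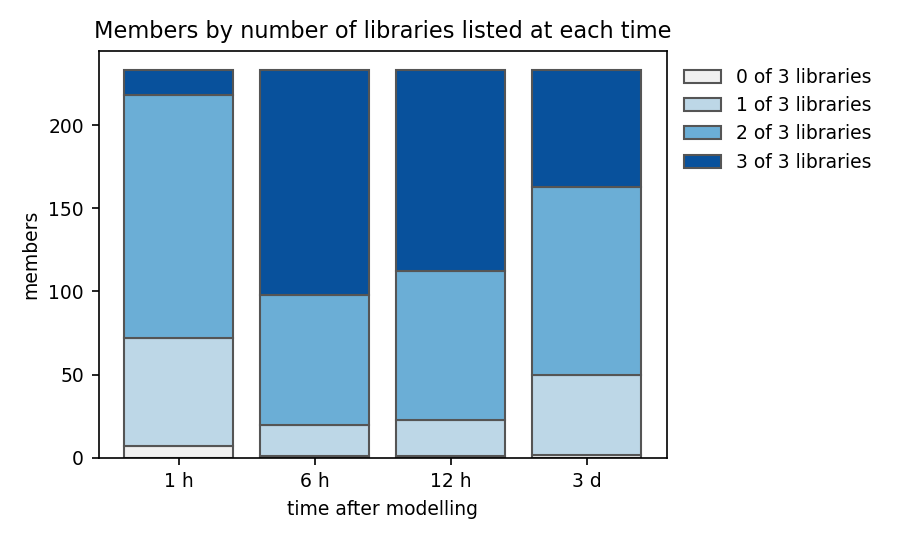
Stacked bars of the 233 members (y axis, number) by how many of the 3 libraries of each time listed them (x axis, time after modelling). At 1 h, 146 were listed in 2 libraries and 15 in all 3; at 6 h, 135 were listed in all 3, at 12 h 121 and at 3 d 70.

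Among the members with the highest means, some were high at 1 h and others later. CBT15_circR_3235 lay at 0, 2503 and 2139 SRPBM at 1 h, at 68.9, 24.1 and 60.9 at 6 h, at 145, 56.6 and 0 at 12 h and at 0, 0 and 43.3 at 3 d. It was high in 1 h replicates 2 and 3, and 0 in replicate 1. CBT15_circR_1446 was likewise high in 1 h replicates 2 and 3, but not as low at 3 d, with 0, 724 and 878 SRPBM at 1 h, 23.0, 121 and 0 at 6 h, 55.9, 0 and 162 at 12 h and 215, 145 and 0 at 3 d. CBT15_circR_14797 lay at 0, 225 and 608 SRPBM at 1 h, at 161, 241 and 60.9 at 6 h, at 134, 90.6 and 97.4 at 12 h and at 131, 0 and 72.1 at 3 d. Its range at 1 h spanned those of all later times.

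CBT15_circR_28409 was highest at 6 h and 12 h. It lay at 0, 119 and 146 SRPBM at 1 h, at 310, 266 and 402 at 6 h, at 235, 363 and 433 at 12 h and at 119, 0 and 101 at 3 d. The 6 libraries of set C did not overlap with the 6 of set A&B. How many other circRNAs separate in this way was not counted, and this member was named for its high mean. CBT15_circR_42624 lay at 0, 119 and 78.8 SRPBM at 1 h, at 195, 96.6 and 244 at 6 h, at 67.1, 193 and 97.4 at 12 h and at 131, 290 and 115 at 3 d. CBT15_circR_10888 lay at 0, 166 and 90.1 SRPBM at 1 h, at 184, 60.3 and 280 at 6 h, at 78.3, 193 and 227 at 12 h and at 107, 111 and 245 at 3 d. Both were listed in 11 libraries, with all 4 times overlapping, and both were at 0 only in 1 h replicate 1.

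CBT15_circR_32635 was the single member listed in all 12 libraries. It lay at 246, 154 and 203 SRPBM at 1 h, at 80.4, 121 and 171 at 6 h, at 134, 102 and 249 at 12 h and at 287, 201 and 159 at 3 d. Group means were 201 ± 45.7, 124 ± 45.2, 162 ± 77.2 and 215 ± 65.2 SRPBM (SD, n = 3 each), and every time overlapped with every other. It was carried by a median of 13.5 reads.

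The other 3 of the 10 highest had zeros spread over the times. CBT15_circR_1753 lay at 273, 403 and 0 SRPBM at 1 h, at 138, 0 and 268 at 6 h, at 134, 0 and 357 at 12 h and at 597, 0 and 115 at 3 d, with 1 zero at each time. CBT15_circR_16149 lay at 0, 403 and 304 SRPBM at 1 h, at 115, 193 and 305 at 6 h, at 0, 306 and 0 at 12 h and at 167, 111 and 188 at 3 d. CBT15_circR_29587 lay at 273, 23.7 and 90.1 SRPBM at 1 h, at 91.9, 0 and 341 at 6 h, at 168, 340 and 141 at 12 h and at 155, 0 and 115 at 3 d. When listed, these 3 stood for a median of 21, 16 and 13 reads, above the 6 of the typical member.

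**Figure D5:**
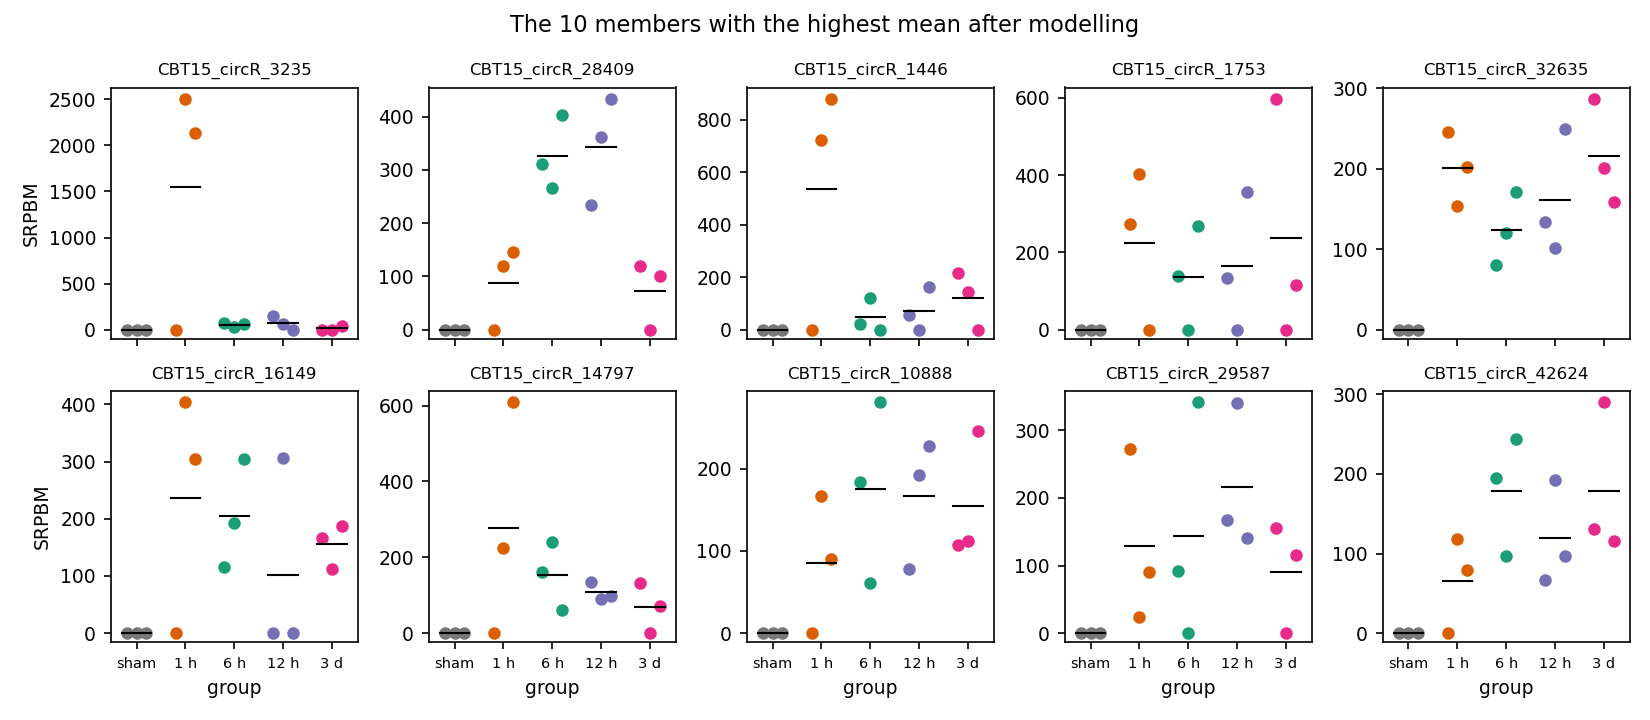
SRPBM (y axis, linear, a scale for each panel) of the 10 members with the highest mean after modelling, in the sham group and at the 4 times (x axis). Each point is a library, in order of replicate from left to right, and the line is the group mean of 3; CBT15_circR_3235 reaches 2503 at 1 h and CBT15_circR_28409 is highest at 6 h and 12 h.

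A few members were at 0 throughout 1 time: 7 missed 1 h, 1 missed 6 h, 1 missed 12 h and 2 missed 3 d. The highest of those missing at 1 h, CBT15_circR_8240, lay at 80.4, 60.3 and 48.7 SRPBM at 6 h, at 44.7, 147 and 0 at 12 h and at 107, 33.4 and 173 at 3 d. CBT15_circR_7604, missing at 6 h, lay at 0, 47.5 and 56.3 SRPBM at 1 h, at 101, 90.6 and 108 at 12 h and at 47.8, 111 and 86.6 at 3 d. CBT15_circR_6325, missing at 12 h, lay at 109, 23.7 and 169 SRPBM at 1 h, at 23.0, 24.1 and 24.4 at 6 h and at 59.7, 167 and 130 at 3 d. The 6 h values of CBT15_circR_6325 stand for 2 reads each, the lowest the table lists. CBT15_circR_9876, the higher of those missing at 3 d, lay at 218, 35.6 and 180 SRPBM at 1 h, at 23.0, 60.3 and 48.7 at 6 h and at 55.9, 45.3 and 0 at 12 h.

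At the other end, CBT15_circR_11818 had the lowest mean, 22.9 SRPBM, with a highest library of 56.6 and a median of 2.5 reads where listed. CBT15_circR_37368 followed at 24.4 SRPBM, with a highest library of 64.9 and a median of 3 reads.

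In 1 h replicate 1, the 19 members listed lay between 40.9 and 737 SRPBM (median 123). Their median of 9 reads was above the 5 to 7 of the other 11 libraries. The highest there, CBT15_circR_2302, stood for 54 reads (737 SRPBM) and lay at 0 and 101 SRPBM in the other 1 h libraries, at 91.9, 60.3 and 97.5 at 6 h, at 44.7, 79.3 and 108 at 12 h and at 0, 156 and 0 at 3 d. It was named after its values were seen. Among the 15 members listed in all 3 libraries at 1 h were CBT15_circR_32635, CBT15_circR_29587, CBT15_circR_6325 and CBT15_circR_9876.

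The differences between times were tested per circRNA with limma, fitted on 16767 circRNAs listed in at least 3 libraries on the scale log2(SRPBM + 23.2), with Benjamini-Hochberg adjustment over all of them. All 233 members were in the fit, which the rule ensures. For 3 d against 1 h, limma called 0 members at an adjusted p under 0.05, where 0.0358% of all circRNAs tested were called (6). An unadjusted p under 0.05 was found for 9 members (3.86%), against 4.92% of all circRNAs. The share was 4.25%, 4.81% and 7.14% of the circRNAs as common after modelling and listed in 1, 2 and 3 sham libraries. The median log2 change was 0.25 over the members and 0.02 over all, but -0.29 and -0.27 without 1 h replicate 1, and -0.19 and -0.18 after scaling by total circRNA signal. In the same fit it was 0.37, 0.51 and 0.25 for the circRNAs as common after modelling and listed in 1, 2 and 3 sham libraries. Limma's smallest p belonged to CBT15_circR_3235, at a log2 change of -3.93 (SE 1.01, adjusted p = 0.144). Without 1 h replicate 1 its change was -6.15 at a limma adjusted p of 0.000116, without 1 h replicate 2 it was -2.77 (adjusted p = 0.863) and without 1 h replicate 3 it was -2.88 (adjusted p = 0.735). In the other direction the smallest p was that of CBT15_circR_8240, at 2.29 (SE 0.96, limma adjusted p = 0.936).

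For 12 h against 6 h, both in set C, limma called 0 members, where 0.0119% of all circRNAs were called (2). An unadjusted p under 0.05 was found for 3 members (1.29%), against 3.80% of all. The share was 1.26%, 0.834% and 0.6% in the 3 classes as common after modelling and listed in 1, 2 and 3 sham libraries. The median log2 change was -0.11 over the members and -0.02 over all, and -0.06, -0.04 and -0.08 in those 3 classes. CBT15_circR_7604 had the smallest p, at a log2 change of 2.40 (SE 0.96, limma adjusted p = 1); its 6 h libraries were all at 0 and its 12 h libraries at 90.6 to 108 SRPBM, so that the change depends on the pseudocount. Lower at 12 h was CBT15_circR_39783, at 149, 145 and 48.7 SRPBM at 6 h against 0, 45.3 and 0 at 12 h (-1.94, SE 0.96, limma adjusted p = 1).

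For set C against set A&B after modelling, limma called 0 members, where 0.0179% of all circRNAs were called (3). An unadjusted p under 0.05 was found for 11 members (4.72%), against 6.88% of all. The share was 7.63%, 5.33% and 6.3% of the circRNAs as common after modelling and listed in 1, 2 and 3 sham libraries. The median log2 change was 0.39 over the members and 0.27 over all, and 0.13 and 0.06 without 1 h replicate 1. With all libraries it was 0.42, 0.51 and 0.39 for the circRNAs as common after modelling and listed in 1, 2 and 3 sham libraries. Among members higher in set C, CBT15_circR_28409 had the smallest p, at a log2 change of 2.16 (SE 0.69, limma adjusted p = 0.663). All 6 of its libraries in set C were above all 6 in set A&B, a separation not counted over the other circRNAs. CBT15_circR_6325 was lower in set C at -1.85 (SE 0.68, limma adjusted p = 0.724). No change between times passed the test in any member in these 3 comparisons.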

How the data were processed

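Whole-blood libraries were made from total RNA, per the labels' protocols, and sequenced in pairs. The authors deposited 1 table of signal in SRPBM, back-spliced reads per 1e9 mapped reads, with find_circ as the caller per the file name. Bowtie 0.12.2 and Rnor_6.0, a rat genome build, are named in the submitters' processing notes with no role; the thresholds of the caller are not given here. All deposited values above 0 (100%) fell on whole steps of their library to within 0.01 read, with 2 steps as the least, so a step was taken as 1 read; this gave mapped reads of 66.0 to 92.4 M (M for 1e6) and the reads behind each value. A list that starts at 2 reads allows no limit for a zero. No libraries held identical values (0 pairs).

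Members were taken by the rule (0 in the 3 sham libraries, above 0 in at least 8 of 12 others). The members, lists and comparisons were chosen with earlier results of these data known. The rule for naming took the 10 highest means, members in all 12 libraries, the 2 lowest means, the highest missing at each time, the 2 highest on either side of the limit and, per comparison, the member of smallest p in each direction where none was called. Limma 3.58.1 under R 4.3.3, with eBayes and a trend, was fitted to log2(SRPBM + 23.2), the pseudocount being the median over libraries of the smallest value above 0, on circRNAs above 0 in at least 3 libraries, with all 5 groups in 1 fit. On this scale changes of low circRNAs are understated. Listing and summed level per library were compared by two-sided exact permutation tests (scipy 1.17.1), 6 in the family. EdgeR's count test, planned as an alternative, was not run, since a check of the units did not accept the recovered reads as counts. Limma-voom was run on the same recovered reads instead and was added after seeing the data. Alternatives were other pseudocounts, filters, scalings, limits of the rule, a replicate block, no trend and leaving out libraries.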

Additional observations from a re-analysis of the deposited data

Results flagged for a closer look

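The percentage of members listed in 1 h replicate 1 was 8.15% (19 of 233), far below the 59.7% to 86.7% of the other 5 libraries of set A&B after modelling. Its gap to the nearest of them made up most of the range of the 6 libraries. Such a gap appears by chance in about 1 of 20 groups of values not picked beforehand. Members were picked on these same listings, and listing and summed level were both screened in each set, so that rate does not hold here. This library also had the fewest circRNAs of all kinds (2551), and the circRNAs as common after modelling that were listed in 1 sham library were at 9.44% there. The part of its low detection in the value was not tested.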

How the results depend on the processing

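The number of members depended on the limit and on single libraries: 453 with 7 or more libraries, 110 with 9 or more, 45 with 10 or more, and 150 with values of at least 3 reads after modelling. Leaving out 1 library gave 127 to 1148, the fewer by construction where 8 of 11 were then required; without sham replicate 1 it was 562 and without replicate 3 it was 1148. Keeping the 7 circRNAs set aside gave 235, an alternative added after seeing the data. For 3 d against 1 h, limma called 0 members in 13 of 17 alternatives (4 to 17 at an unadjusted p under 0.05 over the 17). It called 1, CBT15_circR_3235, in 4: 1 with a pseudocount 10 times the main one (log2 change -2.22, adjusted p = 0.000911), 1 when scaled to total circRNA signal (-4.42, 0.0477), 1 without 1 h replicate 1 (-6.15, 0.000116) and 1 without that library and sham replicate 2 (-6.15, 4.51e-07). Its adjusted p was up to 0.942 over the 17, and leaving out 1 library gave 0 to 1 members. For 12 h against 6 h and for set C against A&B limma called 0 members in all 17 and all 23 alternatives run (unadjusted p under 0.05 in 1 to 9 and in 7 to 37 members). Limma-voom, added after seeing the data, called 0 members in each of the 3 comparisons.

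The percentage of members listed at 3 d less that at 1 h ran from -12.9 to 26.3 points when 1 library was left out, the lowest without 1 h replicate 1. For 12 h less 6 h it was 0.572 points with values of at least 3 reads and -6.80 to 2.43 with 1 library left out. For set C less A&B it was 7.34 to 23.0 points with 1 library left out; without 1 h replicate 3 it was 23.0 at exact permutation p = 0.0390, before adjustment. The log2 ratio of the summed level, 3 d to 1 h, was -0.11 (0.078 when scaled to circRNA signal without the 10 highest, -0.58 to 0.33 with 1 library left out). For 12 h to 6 h it was -0.006 (0.064 when so scaled, -0.14 to 0.17), and for set C to A&B 0.18 (0.022 when so scaled, -0.027 to 0.36, the lowest without 1 h replicate 1). The cause of these turns of sign was not tested. The labels give groups the same replicate numbers, but same-numbered libraries did not deviate together (correlations from -0.0282 to 0.0242). With the replicate block limma called 0 members in each of the 3 comparisons, against 11, 3 and 5 circRNAs in all; CBT15_circR_3235 had adjusted p = 0.0770. A planned edgeR alternative was not run. At a median of 6 reads per listed value, low read numbers limit every level given here.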
